A study of Gallus gallus with 26 samples.

Results

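All tumours were pooled and set against normal ovary for every microRNA (miRNA) of a chicken ovarian cancer series. The 13 miRNA libraries, of 26 library records in the series, comprised 9 tumour libraries (4 from early-stage and 5 from late-stage ovarian cancer) and 4 libraries from normal ovary of Gallus gallus. Libraries were assigned by the tissue given for their sample code, and every name in the deposited miRNA table entered the comparison. How much carcinoma the tumour libraries held was not tested. Each code has 2 records, and the labels do not say which of them is the miRNA library. No treatment, strain, genotype or age is given in the labels, and they do not state how many birds a group comprised. The p-values therefore reflect variation among libraries, which may be technical. Each library is named by its group and code number (normal sample 4, early tumour sample 11).

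A miRNA is cut from a hairpin precursor by the enzymes Drosha and Dicer, and the strand that is kept guides Argonaute proteins to messenger RNAs that pair with its seed, which lowers the stability or translation of those messages. The 2 arms of a hairpin give the 5p and 3p products, of which usually one dominates. Many miRNAs are typical of a cell type, so in a bulk tissue their level follows the mix of cells as well as regulation within cells. In such samples fewer cells of a type and less RNA per cell cannot be told apart. Hens develop ovarian carcinoma spontaneously and are used as a model of the human disease.

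The miRNA table held 1235 names, of which 458 had no count in any library and 266 passed the filter on low counts. Total counts per library ran from 5037040 to 6338110 in normal ovary and from 3038930 to 7728290 in tumours, and the tested names held about 99.99% of the counts of a library. Levels are given as normalised CPM, the deposited counts divided by a library size scaled by the TMM method. Tumour and normal libraries were about as alike as libraries within a class. Pairs of normal libraries had a median correlation of 0.978 in log2 CPM, pairs of tumour libraries 0.979, and pairs of a normal and a tumour library 0.977. No pair of libraries was identical. The messenger RNA libraries of the same codes held all the defining markers of ovary that were looked for (such as ZP3, AMH and FOXL2), and the summed ovarian marker level was 1733 to 2293 CPM in normal ovary and 1475 to 2820 CPM in tumours.

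One miRNA, miR-223, passed an adjusted p of 0.05 between all tumours and normal ovary. That is 1 of 266 tested, or 0.376%, and it was higher in tumours (edgeR quasi-likelihood test, Benjamini-Hochberg adjustment over all tested miRNAs). It was also the only miRNA whose 2 classes did not overlap, again 0.376% of those tested. No miRNA was called lower. Before adjustment, 26 miRNAs (9.77%) had a p under 0.05, with 7 higher (2.63%) and 19 lower in tumours (7.14%). DESeq2 and limma voom each called 1 miRNA, also miR-223.

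**Figure D1:**
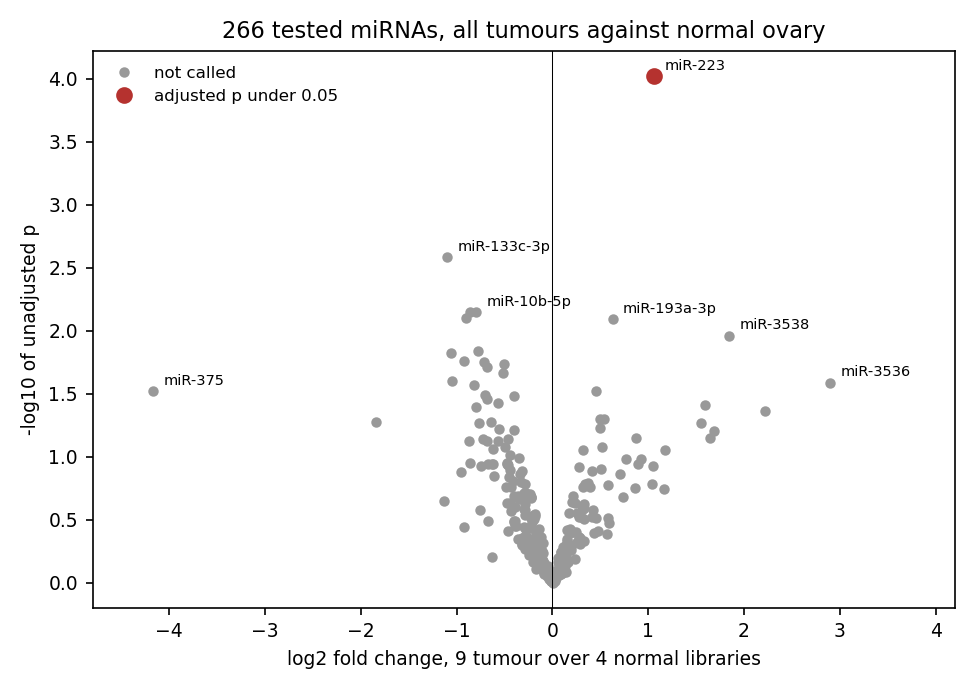
Each point is 1 of the 266 tested miRNAs, placed by its log2 fold change (9 tumour over 4 normal libraries, horizontal axis) and by the -log10 of its unadjusted p (vertical axis). The single red point is miR-223, at a log2 fold change of 1.06, and no other miRNA passed the adjusted threshold.

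In human and mouse, miR-223 is a miRNA of the myeloid lineage, abundant in neutrophils and macrophages, where it restrains granulocyte activation. In normal ovary its level was 359.8, 251.4, 321.8 and 489.2 CPM in samples 3, 4, 6 and 7. In early tumour samples 9, 11, 12 and 21 it was 719.1, 779.1, 892.9 and 543.5 CPM. In late tumour samples 3, 7, 23, 25 and 31 it was 709.2, 717.6, 808.8, 958.6 and 559.7 CPM. All 9 tumour libraries lay above the highest normal library, with early tumour sample 21 and late tumour sample 31 nearest to it. The means were 743.2 ± 137.1 CPM in tumours (SD, n = 9) and 355.6 ± 99.8 CPM in normal ovary (SD, n = 4). The level of miR-223 rose by 1.06 ± 0.20 on the log2 scale (SE), or 2.09-fold (p = 9.56e-05, adjusted p = 0.0254, edgeR). It rested on 1318 to 5364 counts per library and ranked 56 among tested miRNAs by mean CPM.

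The call of miR-223 was close to its threshold. Its adjusted p was 0.213 when libraries were scaled by their totals alone, and between 0.0504 and 0.0714 without normal sample 4, normal sample 6, early tumour sample 11 or late tumour sample 23. By library totals alone it averaged 756.4 ± 184.3 CPM in tumours and 358.6 ± 126.9 CPM in normal ovary, and 2 tumour libraries then fell at or below the highest normal library (513.4 CPM).

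Both stages had similar levels of miR-223. The early mean was 733.6 ± 145.9 CPM (SD, n = 4) and the late mean 750.8 ± 146.5 CPM (SD, n = 5). In a fit with a mean per group, late minus early was 0.03 ± 0.22 on the log2 scale (p = 0.882 in edgeR). Set against the same normal libraries, early tumours gave a log2 difference of 1.04 (adjusted p = 0.134) and late tumours of 1.08 (adjusted p = 0.0483). RefSeq places MIR223 on chromosome 4 of assembly GRCg7b, within the long noncoding gene LOC107053194 and with no other miRNA hairpin within 10000 bases.

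Other miRNAs of immune cells were mostly higher in tumours, but none other than miR-223 passed the test. The list of 9 tested members includes miR-223 itself and both arms of miR-142, miR-146a and miR-146c. Of these 9, 8 had a higher fitted level in tumours and the median log2 fold change was 0.32. Over all tested miRNAs, 114 of 266 were higher and the median was -0.09. The 8 of 9 held under all 4 scalings tried. miR-146c-5p, of the miR-146 family that restrains innate immune signalling in mammals, was the most abundant member, at 18297 ± 3145 CPM in tumours and 15869 ± 2356 CPM in normal ovary (log2 difference 0.21 ± 0.16, adjusted p = 0.604). Its classes overlapped.

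miR-142-3p, a miRNA of blood cells in general, had 221.9 ± 94.8 CPM in tumours and 205.3 ± 47.9 CPM in normal ovary, with late tumour sample 23 highest at 437.9 CPM. miR-155, which is induced in activated lymphocytes and macrophages, ran from 4.0 to 7.19 CPM in normal ovary and from 4.79 to 52.6 CPM in tumours, with a tumour median of 7.06 CPM. Late tumour sample 23 was again the highest. Without that library the median of the 9 immune miRNAs was 0.17. In early tumours alone it was 0.14.

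**Figure D2:**
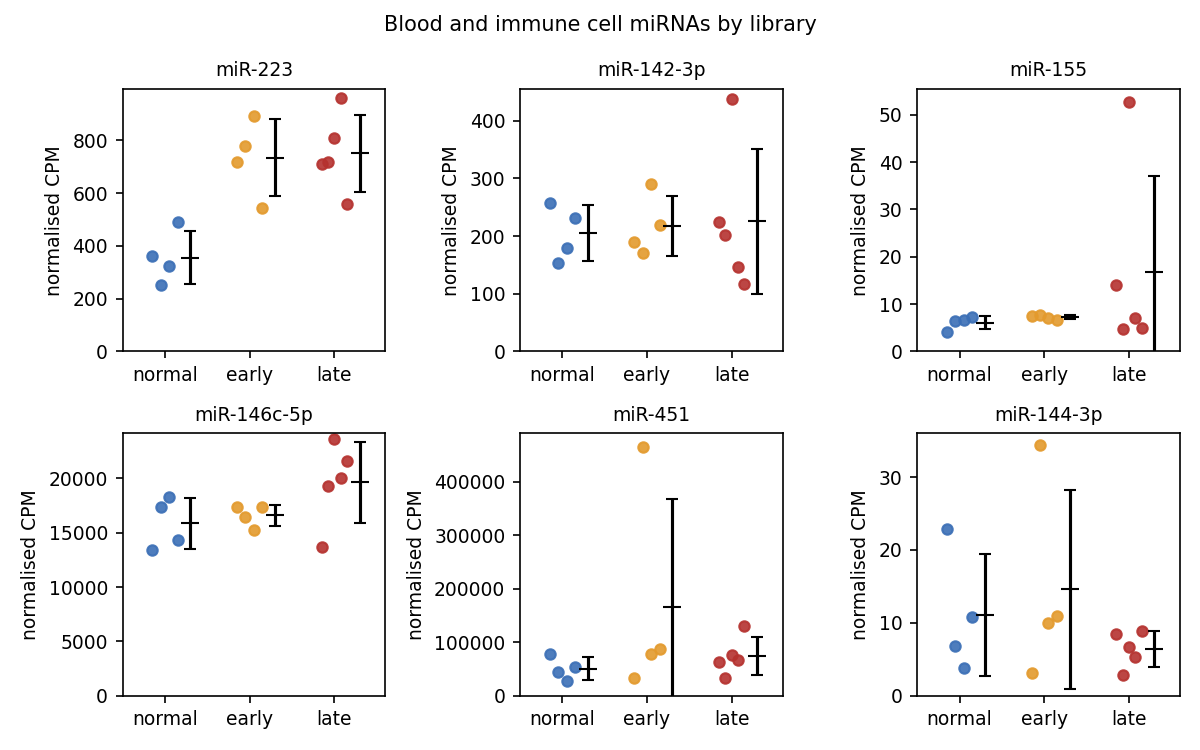
Normalised CPM of 4 immune cell miRNAs and of the red blood cell miRNAs miR-451 and miR-144-3p (vertical axes) in each library, by group (horizontal axes). Points are libraries and black bars are the mean ± SD, cut at 0. miR-223 alone separates the classes, late tumour sample 23 stands high for miR-142-3p and miR-155, and early tumour sample 11 stands high for miR-451.

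Messenger RNA of the same codes gave the myeloid background. Of 15 macrophage and heterophil genes with a mean of at least 1 CPM, 5 had a higher mean in tumours, and the median log2 ratio was -0.05, beside 53.9% of 14664 genes and a median of 0.03. Their summed level was 166.0 to 259.2 CPM in normal ovary and 140.8 to 223.2 CPM in tumours. CSF1R, C1QA, C1QB, MARCO, CSF3R and SPI1 were all read. The mean sums were 200.0 ± 43.2 CPM in normal ovary (SD, n = 4) and 177.1 ± 27.1 CPM in tumours (SD, n = 9), so the sum did not lie higher in tumours as miR-223 did. Lymphocyte genes summed to 1395 to 5745 CPM in normal ovary and 200.3 to 4693 CPM in tumours. Of 7 genes, 1 was higher in tumours, which was JCHAIN. Most of these sums came from IGLL1, with means of 2978 CPM in normal ovary and 1443 CPM in tumours, and JCHAIN, with 579.7 and 642.5 CPM. CD3E averaged 9.57 and 8.12 CPM.

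Of 9 messenger RNAs published as miR-223 targets in human or mouse, 3 had a higher mean in tumours, with a median log2 ratio of -0.10. The list was chosen after results of these data were known. Over all 14664 genes with a mean of at least 1 CPM, 53.9% were higher and the median was 0.03. The summed level of the targets had a higher mean in tumours, at 1479.65 ± 132.8 CPM, beside 1393.5 ± 146.8 CPM in normal ovary (SD). These sums overlapped, at 1287.8 to 1655.4 CPM in tumours and 1223.1 to 1523.8 CPM in normal ovary. NFIA, a transcription factor, had 317.6 ± 122.9 CPM in normal ovary and 257.1 ± 122.7 CPM in tumours. STMN1, a microtubule regulator, had 557.7 ± 141.6 CPM and 703.1 ± 151.2 CPM. The ranges of both overlapped between the classes.

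The 19 miRNAs with the next smallest p are given as values, since their adjusted p lay between 0.348 and 0.419. Of the 20 with the smallest p, 5 were higher and 15 lower in tumours. None of the 20 was called between late and early tumours.

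**Figure D3:**
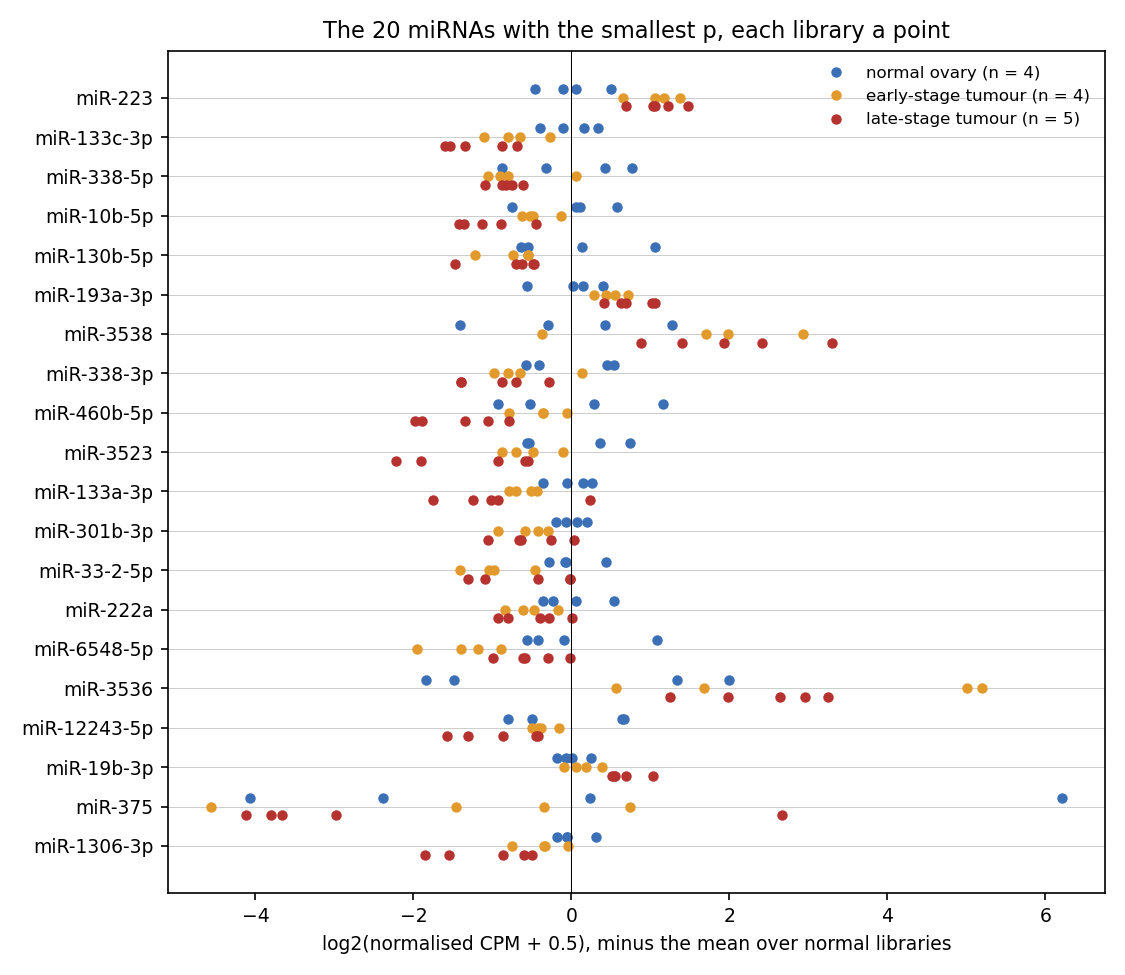
The 20 miRNAs with the smallest p, from top to bottom. Each point is a library, placed by log2(normalised CPM + 0.5) minus the mean over the 4 normal libraries (horizontal axis), and colours mark normal ovary, early and late tumours. The classes are apart for miR-223 alone, and 1 normal library lies far to the right for miR-375.

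Higher in tumours after miR-223 came miR-193a-3p, which acts against proliferation and epithelial tumour growth in human cells. It ran from 110.5 to 214.2 CPM in normal ovary (median 172.4) and from 198.1 to 340.3 CPM in tumours (median 250.9). Of 9 tumour libraries, 8 exceeded every normal library. The log2 difference was 0.63 ± 0.21 (p = 0.00813, adjusted p = 0.360, edgeR). The opposite arm of the same hairpin, miR-193a-5p, did not go along, at 129.6 ± 20.4 CPM in tumours and 146.3 ± 46.8 CPM in normal ovary.

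miR-19b-3p belongs to the miR-17-92 cluster, which is known in mammals as an oncogenic cluster. Its levels were 3222, 3681, 3493 and 4346 CPM in normal samples 3, 4, 6 and 7. Early tumours averaged 4060 ± 578 CPM and late tumours 5859 ± 949 CPM, and all 5 late libraries lay above the highest normal library. Across all tumours the log2 difference was 0.46 ± 0.19 (p = 0.0300, adjusted p = 0.419, edgeR). None of the other 10 tested products of its hairpin and the neighbouring ones was called (lowest adjusted p 0.4659, edgeR), and 9 of the 10 were lower under TMM scaling. miR-20a-3p, at 8.36 ± 5.05 CPM in normal ovary and 5.22 ± 1.99 CPM in tumours, had the widest difference, -0.68. miR-17-5p differed by -0.19, miR-20a-5p by -0.10, miR-19a-3p by -0.03 and miR-92-3p by -0.19 on the log2 scale.

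miR-3538 and miR-3536 had the widest positive differences of the 20. miR-3538 had 12.9 ± 9.6 CPM in normal ovary and 46.5 ± 30.9 CPM in tumours, with 7 of 9 tumour libraries above every normal library (log2 difference 1.84 ± 0.63, adjusted p = 0.399, edgeR). RefSeq gives its locus, within the ribosomal protein gene RPL3, the gene type miRNA but the small nucleolar RNA symbol SNORD83A. The counts do not tell the 2 kinds of RNA apart. miR-3536 had 0 to 35 counts per normal library and 15 to 224 per tumour library, and early tumour samples 11 and 12 carried the highest levels (57.2 and 65.4 CPM).

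Among the 15 lower miRNAs were 2 close relatives known from muscle, miR-133a-3p and miR-133c-3p, which may share reads. miR-133a-3p, which controls growth and differentiation of muscle, ran from 753.2 to 1156 CPM in normal ovary (median 1000.5) and from 285.8 to 1140 CPM in tumours (median 559.9). In 8 of 9 tumour libraries it was below every normal library, and late tumour sample 31 was the exception. The log2 difference was -0.71 ± 0.27 (p = 0.0177, adjusted p = 0.399, edgeR). Its relative miR-133c-3p had the second smallest p, 0.00262, with a log2 difference of -1.10 ± 0.31 (adjusted p = 0.348, edgeR), but rested on 8 to 40 counts per library.

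miR-1a-3p, which lies beside miR-133a on the chromosome, was level, at 222.03 ± 111.2 CPM in normal ovary and 219.4 ± 79.0 CPM in tumours. Of 6 tested muscle miRNAs, 5 were lower, with a median of -0.40 (4 of 6 were lower under RLE or upper quartile scaling). In messenger RNA of the same codes, 0 of 10 smooth muscle genes had a higher mean in tumours. Their summed level ran from 984.1 to 11157 CPM in normal ovary and from 258.7 to 4783 CPM in tumours, and normal samples 6 and 7 lay within the tumour range. Whether smooth muscle content had a part in these miRNA values was not tested.

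miR-10b-5p lies in a HOX cluster, beside genes that set body position, and is linked to invasion in human breast cancer cells. It was 672.3, 929.0, 648.0 and 368.0 CPM in normal samples 3, 4, 6 and 7, against a tumour range of 231.7 to 569.2 CPM. Only normal sample 7 fell within the tumour range. Early tumours averaged 461.6 ± 73.8 CPM and late tumours 309.0 ± 90.8 CPM. The log2 difference over all tumours was -0.80 ± 0.26 (p = 0.00712, adjusted p = 0.360, edgeR).

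Both arms of the miR-338 hairpin were among the 20. miR-338-5p had 117.1 ± 56.1 CPM in normal ovary and 64.4 ± 18.6 CPM in tumours (log2 difference -0.86 ± 0.28), and miR-338-3p had 394.3 ± 150.5 and 229.5 ± 83.7 CPM (-0.78 ± 0.28). The classes overlapped for both. RefSeq places the hairpin within AATK, a kinase gene, whose messenger RNA had 4.29 ± 2.08 CPM in normal ovary and 1.52 ± 0.80 CPM in tumours. The same held for miR-33-2-5p, 793.0 ± 178.9 CPM in normal ovary and 492.5 ± 185.9 CPM in tumours, and its host SREBF1, a regulator of lipid synthesis, at 12.99 ± 6.36 and 6.16 ± 2.27 CPM. For miR-3523, at 141.4 ± 64.0 and 74.7 ± 29.1 CPM, the host DUSP1 did not go the same way, at 312.5 ± 50.8 and 382.7 ± 151.5 CPM. Pairs of 1 of the 20 miRNAs and a gene spanning it were limited to protein-coding genes and to miRNAs matched to 1 hairpin. AATK entered with both arms of miR-338, and miR-12243-5p with both LOC771545 and SIRPA. Over these 16 pairs, the means differed the same way in 7 and opposite ways in 9. The RefSeq table gives no strand, so it does not show whether a hairpin is read with its host.

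The remaining lower miRNAs among the 20 had log2 differences from -0.51 to -4.17. miR-222a, a member of a pair that targets cell cycle inhibitors in mammals, had 3978 ± 1165 CPM in normal ovary and 2790 ± 629 CPM in tumours (log2 difference -0.51 ± 0.20), while its neighbour miR-221-3p was 2263 ± 868 and 2120 ± 560 CPM. miR-301b-3p had 361.5 ± 43.4 and 254.1 ± 60.0 CPM, and 8 of 9 tumour libraries were below every normal library. miR-1306-3p, within the DGCR8 gene of the Drosha partner protein, had 21.1 ± 3.34 and 12.99 ± 4.72 CPM, also with 8 of 9 below. miR-460b-5p, miR-130b-5p, miR-6548-5p and miR-12243-5p differed by -1.06, -0.91, -1.05 and -0.81 on the log2 scale.

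Several of these differences rested largely on 1 normal library. Without normal sample 6, the log2 difference of miR-130b-5p was -0.35, of miR-6548-5p -0.41, of miR-222a -0.23 and of miR-12243-5p -0.52. Without normal sample 4, that of miR-460b-5p was -0.47, of miR-10b-5p -0.50 and of miR-338-5p -0.50. Without normal sample 3, that of miR-3523 was -0.58. miR-6548-5p, for example, had 8.79 CPM in normal sample 6 and 2.48 to 3.59 CPM in the other normal libraries.

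miR-375, an epithelial and neuroendocrine miRNA, had the largest fitted difference of the tested miRNAs, -4.17 ± 1.70 on the log2 scale (p = 0.0303, adjusted p = 0.419, edgeR). It rested on 1 library. Normal sample 4 had 2271 CPM, and normal samples 3, 6 and 7 had 5.38, 35.7 and 1.32 CPM. Tumours ran from 0.792 to 194.5 CPM. Without normal sample 4 the difference was 1.27 in the other direction.

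Between the stages, miR-24-3p differed from the pooled pattern. It had 4784 ± 327 CPM in normal ovary, 4708 ± 877 CPM in early tumours and 2425 ± 818 CPM in late tumours, and all 5 late libraries lay below every normal library. Late tumours against normal ovary gave -0.98 ± 0.21 on the log2 scale (adjusted p = 0.0483, edgeR), which with miR-223 made 2 of 266 miRNAs called there (0.752%), with 49 at an unadjusted p under 0.05 (18.4%). When late and normal libraries were fitted alone, 1 of 253 was called, which was miR-223, so the call of miR-24-3p was lost. Early tumours against the same normal libraries called 0 (0%), with 22 at an unadjusted p under 0.05 (8.27%). Late against early gave -0.96 ± 0.21 for miR-24-3p (adjusted p = 0.0633), and 0 miRNAs were called there, with 38 at an unadjusted p under 0.05 (14.3%). Pooled over both stages, its log2 difference was -0.48 ± 0.28 (adjusted p = 0.508).

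By share of counts, a few miRNAs made up most of every library in both classes. miR-26a-2-5p, a miRNA that restrains proliferation in many mammalian tissues, held 28.6 ± 5.2% in normal ovary and 27.2 ± 5.1% in tumours. The separate name miR-26a-5p had 0 counts in every library. miR-143-3p, typical of smooth muscle and other mesenchymal cells, held 14.4 ± 4.0% and 10.6 ± 3.4%. miR-99a-5p held 9.73 ± 2.22% and 10.9 ± 2.5%. The endothelial miR-126-3p held 5.63 ± 0.59% and 5.16 ± 0.65%, and miR-21-5p, a miRNA raised in many human tumours, 3.43 ± 0.09% and 3.88 ± 0.90%.

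The red blood cell miRNA miR-451 held 5.27 ± 2.77% of normal libraries and 10.4 ± 10.0% of tumour libraries (exact permutation test, two-sided, p = 0.196, adjusted p = 0.430 over 8 values per library). Early tumour sample 11 had the highest share, 36.3%, and the highest summed red blood cell messenger RNA (225.2 CPM, beside 29.6 to 168.9 CPM in normal ovary). The other libraries did not follow this order: late tumour sample 31 was next by share (11.6%) with a sum of 15.7 CPM, and early tumour sample 9 had 3.83% with 170.1 CPM. Of 5 red blood cell genes, 0 had a higher mean in tumours (median log2 ratio -0.23). The share of the let-7 family was 8.31 ± 1.54% in normal ovary and 6.46 ± 1.86% in tumours (exact permutation test, two-sided, p = 0.0979, adjusted p = 0.430). The smallest p this design allows is 0.0028. Total counts, the number of names seen at a common depth, the share of 3p arms, the share of the 8 most abundant miRNAs, the share of miR-26a-2-5p and the mean length of the counted names also did not pass.

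Families were described by the sign and median of their tested members, beside 114 of 266 higher and a median of -0.09 over all tested miRNAs. The let-7 family, which restrains growth-promoting messages such as those of RAS and LIN28 in mammals, had 13 of 14 tested members lower, with a median of -0.31; the 13 of 14 held under all 4 scalings tried, with medians up to -0.23. None was called, and the lowest adjusted p was 0.459. Of the 18 let-7 names in the table, 14 had counts, while let-7a-5p and let-7j-5p had 0 in every library. The reason was not tested, so the family's values describe only the names that were counted. Among these, let-7b was the most abundant, at 26524 ± 10197 CPM in normal ovary and 19938 ± 5948 CPM in tumours. let-7c-5p was 23849 ± 7467 and 17558 ± 5632 CPM. The 2 classes overlapped for both.

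Lists with mesenchymal miRNAs, and the miR-23, miR-27 and miR-24 clusters, also had medians below 0. miR-143 and miR-145 had 3 of 4 members lower (median -0.42). The exception was miR-145-5p, the more abundant arm of miR-145, which was level at 0.04 on the log2 scale. miR-199 and miR-214 had 2 of 3 lower (-0.25), and the miR-23, miR-27 and miR-24 clusters 4 of 6 lower (-0.26). miR-143-3p had 145240 ± 39604 CPM in normal ovary and 106584 ± 36206 CPM in tumours. Of 14 fibroblast and matrix genes in messenger RNA of the same codes, 0 had a higher mean in tumours, and their sum was 4228 to 15735 CPM in normal ovary and 1008 to 11375 CPM in tumours. Their part in the miRNA values was not tested.

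Epithelial lists did not all lie on one side. All 4 tested miR-200 family members, which maintain epithelial identity by repressing ZEB factors, were lower by small amounts (median -0.12; 3 of 4 lower under RLE or upper quartile scaling). miR-429-3p was 1232 ± 88 CPM in normal ovary and 1189 ± 208 CPM in tumours. The 5 tested members of the other epithelial miRNAs (miR-31, miR-184, miR-203 and miR-205) were all higher, with a median of 0.71, but none was called. They include both arms of miR-31, and the median is the value of miR-31-5p. miR-184-3p was 119.5 and 57.4 CPM in late tumour samples 31 and 7. It was 5.54 to 16.4 CPM in the other tumour libraries and 4.28 to 18.6 CPM in normal ovary. miR-205a rested on 4 to 37 counts per library. miR-31-5p ran from 731.4 to 2875 CPM in normal ovary and from 805.5 to 5786 CPM in tumours, and 2 tumour libraries exceeded every normal library. In early tumours alone the median of this list was 0.08. Epithelial genes in messenger RNA summed to 1069 to 1353 CPM in normal ovary and 1241 to 1570 CPM in tumours. Of 8 genes, 5 were higher (62.5%, beside 53.9% of all 14664 genes). The mean sums were 1142.6 and 1395.4 CPM, and nearly all of this difference lay in EPCAM, at 704.0 ± 277.0 and 954.2 ± 287.4 CPM (SD). KRT18, at 48.9 and 32.1 CPM, and KRT8, at 60.3 and 55.0 CPM, had lower means in tumours, as had ELF3. CDH1 was 5.54 and 5.94 CPM. Of 9 carcinoma marker genes in the table, the 5 with a mean of at least 1 CPM had a slightly higher mean in tumours (median log2 ratio 0.14), with sums that overlapped. The other 4 had a mean under 1 CPM over all libraries and a lower mean in tumours. Among them, WFDC2 was at 0 to 8.86 CPM in normal ovary and 0.102 to 0.258 CPM in tumours. OVAL was at 0.246 to 1.43 CPM in normal ovary and 0.103 to 0.96 CPM in tumours. PAX2 and MUC16 each reached at most 0.103 CPM in tumours. The summed carcinoma markers thus did not set the tumour libraries apart from normal ovary. The tumour class rests on the labels, and the carcinoma content of its libraries was not tested.

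The miR-34 and miR-449 family, which acts downstream of p53 and in multiciliated cells, had 6 of 8 tested members higher and a median of 0.45. In early tumours alone the median was -0.03. The lower members were miR-34b-3p and miR-34c-3p, at -0.93 and -1.14 on the log2 scale. The widest positive difference, 1.64 for miR-449c-3p, rested on 1 to 39 counts per library. miR-34a-5p was 1579 ± 225 CPM in normal ovary and 2078 ± 779 CPM in tumours, and miR-449a was 195.1 ± 84.3 and 323.9 ± 244.2 CPM. Late tumour sample 3 was the highest for miR-449a, at 897.4 CPM. The gonadal miR-202-5p was 14225 ± 3137 CPM in normal ovary and 13349 ± 7613 CPM in tumours, with early tumours averaging 8815 and late tumours 16977 CPM.

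Of the remaining lists, the HOX cluster miRNAs had 5 of 6 members lower (median -0.28), the neuroendocrine and neural list 7 of 12 lower (-0.21), the liver and intestine list 3 of 3 lower (-0.76) and the miR-17-92 cluster and its paralogues 12 of 17 lower (-0.13). The miR-99, miR-100 and miR-125 list had 5 of 5 higher (0.10) and the miR-181 family 3 of 3 higher (0.13). The miR-29, miR-30 and miR-15/16 families had medians of 0.19, 0.08 and 0.06. The red blood cell list had a median of 0.50 over 2 members that went opposite ways, miR-451 at 1.18 and miR-144-3p at -0.17. The miR-183 cluster had 0.13 over 2, with miR-183 at 0.33 and miR-182-5p at -0.07. The medians of miR-126, miR-202, the miR-221 and miR-222 list and the miR-26a, miR-21 and miR-22 list changed sign with the scaling. Endothelial messages, 12 genes of which 4 were higher, summed to 515.2 to 576.4 CPM in normal ovary and 414.0 to 810.7 CPM in tumours. None of the 8 names on the embryonic stem cell and germ cell list (miR-302 members, miR-367 and miR-1811) passed the filter.

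**Figure D4:**
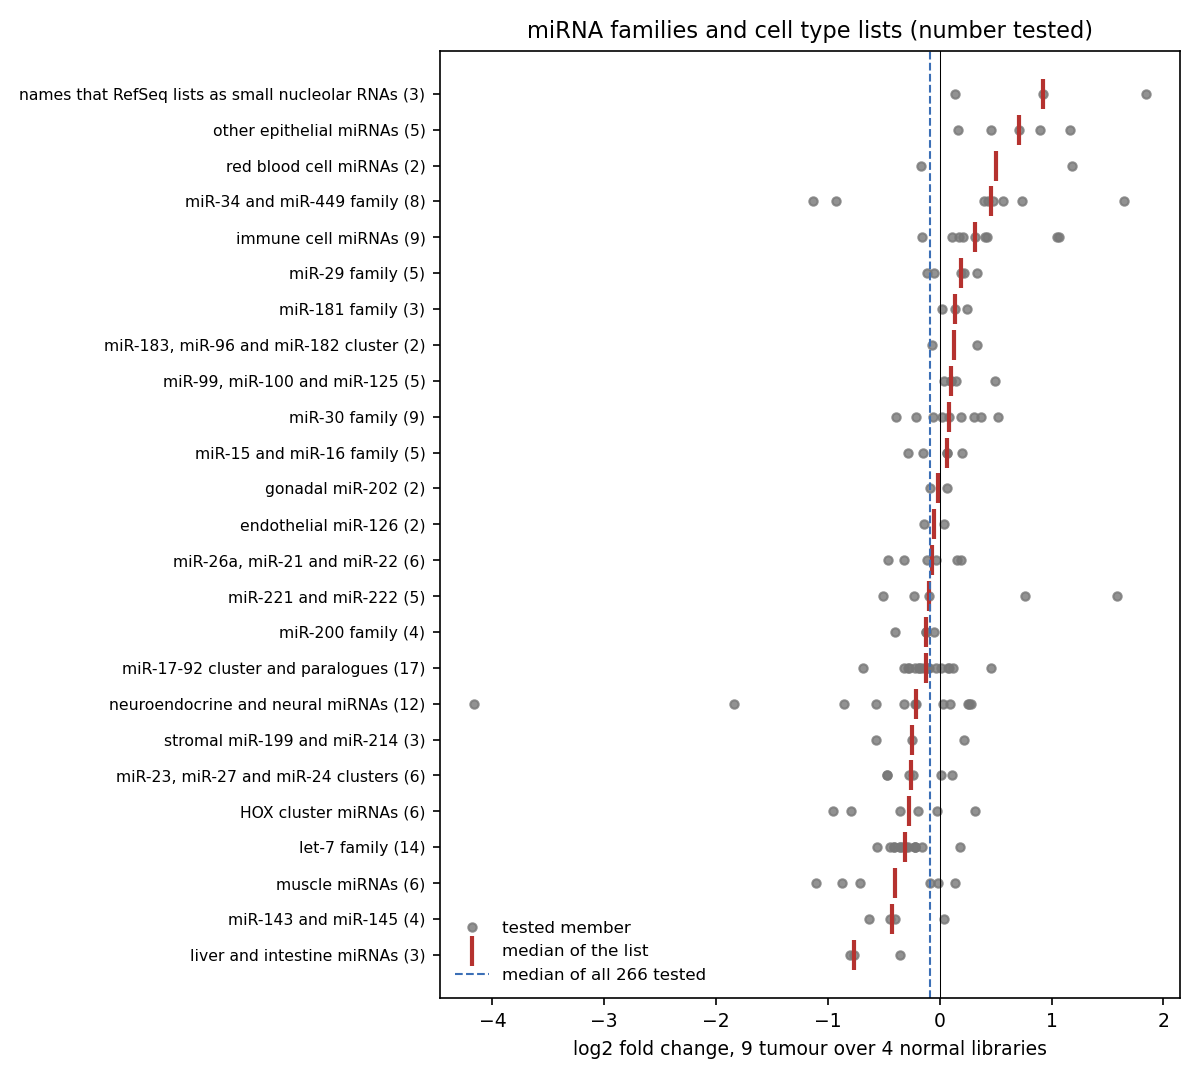
Log2 fold change of tumour over normal (horizontal axis) for each tested member of each list (rows, with the number tested). Grey points are members, red ticks are the medians of lists and the dashed line is the median of all 266 tested miRNAs, -0.09. The let-7 members lie to the left of 0 with 1 exception, and 8 of 9 immune members lie to the right.

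The ratio of the arms of a hairpin does not depend on scaling between libraries. Of 393 hairpins with both arms named, 35 had enough counts on both arms. None passed an adjusted p of 0.05 (0 of 35, 0%), 3 had an unadjusted p under 0.05 (8.57%), and the classes did not overlap for 1 (2.86%). That hairpin was miR-10a, which also lies in a HOX cluster. Its log2 ratio of 5p over 3p counts was 9.69, 9.33, 10.04 and 9.31 in normal samples 3, 4, 6 and 7, and 8.50 to 9.16 in tumours, so that every tumour library lay below every normal library. The difference was -0.70 ± 0.20 (p = 0.00307, adjusted p = 0.108, limma), with miR-10a-5p at 25069 ± 3453 CPM in normal ovary and 19615 ± 5391 CPM in tumours and miR-10a-3p at 32.7 ± 6.8 and 40.7 ± 8.8 CPM. The ratio of miR-193a differed by -0.78 (adjusted p = 0.239, limma), that of miR-21 by 0.57 and that of miR-199 by -0.48 (both adjusted p = 0.351, limma). Without normal sample 6 the ratio of miR-21 was called, at a difference of 0.88, and that of miR-193a differed by -0.40. Without normal sample 3 that of miR-199 differed by -0.29.

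**Figure D5:**
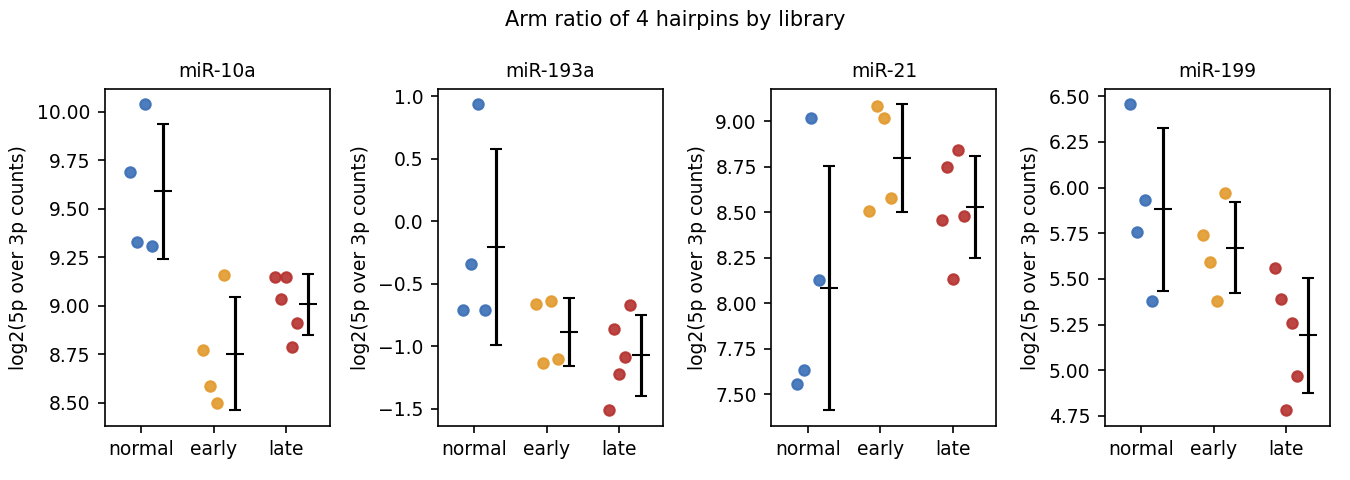
Log2 ratio of 5p over 3p counts (vertical axes) for the 4 hairpins with the smallest p, by group (horizontal axes). Points are libraries and black bars are the mean ± SD. For miR-10a all 9 tumour libraries lie below the 4 normal libraries, and for miR-193a, miR-21 and miR-199 the classes overlap.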

How the data were processed

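The authors deposited a table of raw counts per miRNA name, with the mature length of each name, and a table of estimated counts per gene. FastQC, BWA and GATK 3.3.0 are named, with no role, per the submitters' processing notes. The sources used here do not name the counting program, the genome build or the handling of reads that match several miRNAs. The estimated counts deposited by the authors were divided by library totals (16273731 to 20118629) and only described. The deposited lengths, in bases, served the mean length per library. A row with no miRNA name had 0 counts and was dropped.

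miRNA counts were tested with edgeR 4.0.16 in R 4.3.3 (TMM, filterByExpr with a minimum count of 10, robust glmQLFit, 2 classes), with Benjamini-Hochberg adjustment over 266 names and a threshold of 0.05. The common coefficient of variation was 42.4%. Stage values came from a fit of 3 group means. SE is the one implied by the F statistic. Arm ratios used limma 3.58.1 on log2 of 5p over 3p counts (prior count 0.5, mean of at least 50 counts per arm). Single values used exact permutation over 715 splits. DESeq2 1.42.0, voom, other scalings and filters, and leaving out libraries were alternatives. The procedure was tested on simulated data.

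Named miRNAs were those called, those with the smallest p up to 20, the 8 most abundant, and the most abundant or called members of each list. Genes or miRNAs beyond that rule were chosen after their values were seen. The members and lists were chosen with earlier results of these data known. RefSeq (GRCg7b) matched 1150 of 1235 names and was used for names, neighbours and spanning genes alone. Sums by seed family or by identical mature sequence were not run, and near-identical miRNAs (such as let-7 members, or miR-133a and miR-133c) may share reads. The names let-7a-5p, let-7j-5p and miR-26a-5p had 0 counts throughout, and how their reads were assigned is not known.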

Additional observations from a re-analysis of the deposited data

Results flagged for a closer look

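A sample was marked where its gap to the nearest other sample of its class was a large part of the class's range. This was looked for in 86 groups (43 named miRNAs in 2 classes) and marked 7. The nominal chance rate of such marks is about 1 in 20 groups. That rate was not checked for these values, and 20 of the 43 miRNAs were picked by their small p.

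miR-375 stood at 2271 CPM in normal sample 4, against 1.32 to 35.7 CPM in the other normal libraries, and at 194.5 CPM in late tumour sample 23, against 0.792 to 50.7 CPM in the other tumours. Early tumour sample 11 was high for miR-451 (465195 CPM, others 32171 to 129671) and for the liver miRNA miR-122-5p (116.2 CPM, others 23.6 to 57.3). miR-338-5p was 111.3 CPM in early tumour sample 21 (others 49.8 to 69.4), and miR-429-3p was 1688 CPM in early tumour sample 9 (others 954.4 to 1218). miR-133a-3p was 1140 CPM in late tumour sample 31 (others 285.8 to 714.8). Each range of others covers tumours alone. Normal ovary reached higher values for miR-122-5p (145.5 CPM, sample 7), miR-338-5p (181.8 CPM, sample 4) and miR-133a-3p (1156 CPM, sample 3). For miR-451 and miR-429-3p it did not.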

How the results depend on the processing

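The number of called miRNAs was 1 as reported and 0 with library size scaling, in early tumours alone, and without normal sample 4, early tumour sample 11 and late tumour sample 23 together; leaving out 1 library at a time gave 0 to 1, with 0 in 4 of 13 fits. Under these settings miR-223 had log2 fold changes of 1.08, 1.03 and 0.99, and 1.03 to 1.26 with 1 library left out; the cause was not tested. In the other alternatives run for it, DESeq2 and voom included, it was called, with adjusted p down to 7.87e-06. The last 2 of those 3 settings were chosen after seeing the data. miR-375 ran from -5.62 to 1.27 with 1 library left out, and its sign turned without normal sample 4. Hairpins called for arm ratio numbered 0 to 1 with 1 library left out. Normal and late tumour codes share the numbers 3 and 7, and the labels do not say whether such codes share a bird. Deviations from the group means correlated at -0.12 for number 3 and 0.06 for number 7. With 1 pair per number, these values cannot settle it. With the replicate block 1 miRNA was called, miR-223 at 1.14, and 0 hairpins. Another scaling moved the split of all tested miRNAs from 114 higher and 152 lower to 136 and 130 (upper quartile), and their median from -0.09 to 0.00. For the 20 miRNAs, 566 alternative values kept their direction and side of the threshold, 7 (all of miR-223) lost the call and 1 (miR-375) reversed. Sums by identical mature sequence and all seed family fits were not run. Depth limits values such as that of miR-133c-3p, at 8 to 40 counts per library.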

Other observations

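Tumour libraries varied among themselves about as much as normal libraries for most miRNAs. Over 117 miRNAs with a mean of at least 100 CPM, the median coefficient of variation was 25.1% in tumours and 22.8% in normal ovary, a description made after seeing the data. A few miRNAs varied far more in tumours. miR-2188-5p had a coefficient of variation of 161% and reached 35441 CPM in early tumour sample 11, where miR-193b-3p was also at its highest, 955.9 CPM. Late tumour sample 3 was the highest for miR-449a, miR-449d-5p (498.0 CPM), miR-31-3p (780.3 CPM), miR-31-5p and miR-202-5p (30015 CPM).

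For 5 miRNA names, RefSeq gives the locus the gene type miRNA but the symbol of a small nucleolar RNA. Of these, 3 were tested. miR-1434, miR-1563 and miR-3538 had log2 fold changes of 0.14, 0.92 and 1.84, and 0 were called. Without such names, a setting added after seeing the data, miR-223 had a log2 fold change of 1.14 (adjusted p = 0.0101, edgeR).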
